A study of Mus musculus with 17 samples.

Results

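Wild-type bone marrow-derived cells that had settled in the brains of Trem2-knockout mice with amyloid pathology were compared with the brain's own Trem2-knockout microglia in such mice without a transplant. The comparison took in 7 RNA-seq libraries, 4 of transplanted cells and 3 of microglia. A gene was tested when its value was 10 or more in at least 3 of these 7 libraries, which 11593 of the 13501 genes in the table met. The study asked whether marrow-derived cells that take the place of microglia can bring back Trem2 function in mice that model Alzheimer's disease.

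The host in both groups was Trem2-KO; 5XFAD, that is, a mouse without a working Trem2 gene that also carried the 5xFAD transgenes, which encode mutant human amyloid precursor protein and presenilin. The transplanted group (Trem2-WT transplanted Trem2-KO; 5XFAD) had received Trem2-wildtype bone marrow together with PLX5622, a drug that depletes microglia by blocking the CSF1 receptor, and its cells were labelled as circulation-derived myeloid cells. The comparison group (Trem2-KO; 5XFAD) was labelled as Trem2-knockout microglia with no treatment. Cell origin, treatment and Trem2 genotype of the cells therefore changed together, and their parts in a difference cannot be told apart within this comparison. All cells were DAPI-negative, CD45+ and CD11b+ cells sorted from brain, a gate that takes microglia, macrophages, monocytes and neutrophils alike and does not separate donor from host cells. The labels gave no age, sex or conditioning, and did not say whether the libraries came from separate animals, so p-values measure the spread between these libraries. The 3 other groups, used where stated, were Trem2-KO transplanted Trem2-KO; 5XFAD cells (4 libraries), microglia of untreated Trem2-WT; 5XFAD mice (3) and microglia of untreated wild-type mice without 5xFAD (3).

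TREM2 is a surface receptor of microglia and other macrophages that binds lipids, lipoproteins including apolipoprotein E, and amyloid, and signals through the adaptor TYROBP (DAP12) and the kinase SYK. In amyloid models, microglia around plaques leave their homeostatic state and take on the disease-associated microglia (DAM) state, in which an early set of genes can turn on without TREM2 while a later set depends on it. Microglia come from the embryonic yolk sac and keep their identity through factors such as SALL1. Macrophages that enter the brain from bone marrow carry genes of their own lineage.

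Values below are normalised read counts, in which the authors divided each library's reads by 1 size factor. Per-library values are given in the order S28, S29, S30 and S31 for the transplanted cells and S25, S26 and S27 for the knockout microglia, the numbers in the table's column names. Fold changes are transplanted cells minus microglia on the log2(value + 1) scale, and a gene was called when its adjusted p from limma was below 0.05. The 7 libraries held from 16163565 to 19636762 reads in genes. S26 stood apart from the other microglia libraries: its chi-square per degree of freedom was 136.1 against S25 and 136.5 against S27, while S25 and S27 stood 9.856 apart. Within the transplanted cells, S30 and S31 were the closest pair at 4.98, and the other pairs lay between 34.83 and 50.08. Both close pairs differed by more than sampling noise and were counted separately. S25 and S27 held more neutrophil RNA (the summed value of 20 neutrophil markers was 137894.2 and 148637.1) than S26 (58658.9) or the transplanted cells (25906.5 to 33550.2). S30 and S31 held more oligodendrocyte RNA (50326.7 and 49847.8 over 16 markers) than the other 5 libraries (17732.5 to 29416.8). Where a named gene's call was lost, its value is given without S25 and S27, without S30 and S31, or with a neutrophil covariate. That covariate was the mean log2 value of a library's neutrophil markers. It was 7.353 to 8.574 in the transplanted cells and 9.465 to 11.108 in the microglia. Cxcr2, Chil3 and Il1r2, on other lists below, are among its markers. As its ranges do not overlap, it cannot be fully told apart from group. A call lost with it does not show that neutrophil RNA made the difference. Without S25 and S27, S26 is the only microglia library and is assumed to vary like the other groups. In bulk RNA, fewer cells of a type and less RNA per cell cannot be told apart.

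Trem2 (ENSMUSG00000023992.14, chr17:48346401-48354147) checked the labels. Its value was 38648, 37066, 53908 and 52324 in the transplanted cells and 5516, 4367 and 5965 in the knockout microglia. The groups were far apart, and S30 and S31 were the highest. The means were 45487 ± 8857 (SD, n = 4) and 5282 ± 824 (SD, n = 3), an 8.56-fold difference (log2 fold change 3.10, SE 0.15, adjusted p = 5.03e-11). Trem2-knockout transplanted cells had 4499 ± 601 (SD, n = 4) and wild-type 5xFAD microglia 51275 ± 1868 (SD, n = 3). Reads were thus still counted at Trem2 in every knockout library, and the labels do not say which part of the gene the knockout alters.

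In the Trem2 signalling chain, 8 of 21 genes rose and 2 fell, and the median of their log2 fold changes was 0.30. Tyrobp, the adaptor, was not called: it was 44993, 51095, 76302 and 75651 in the transplanted cells and 49836, 36587 and 55866 in the microglia (log2 fold change 0.37, SE 0.18, adjusted p = 0.125). Only S30 and S31 lay above all 3 microglia libraries. Its fold change was 0.19 without S26, and without S28 it was 0.51 and passed the test (adjusted p = 0.0305). Without S26, S30 and S31 its sign turned, to -0.14 (adjusted p = 0.448). Ms4a4a, of the membrane family linked to TREM2 levels, rose most after Trem2, from 256, 178 and 195 in the microglia to 1943, 1693, 1171 and 1439 in the transplanted cells (log2 fold change 2.88, SE 0.30, adjusted p = 8.46e-07). Ms4a6d of the same family (0.75), protein kinase C delta Prkcd (0.51) and the phosphatase gene Ptpn6 (0.38) rose by smaller amounts on the log2 scale. Btk, a kinase downstream of SYK, fell (-0.59), as did Adam10 (-0.49), a protease that sheds TREM2, whose call was lost without S25 (-0.43, adjusted p = 0.0588). Syk (0.22), Plcg2 (0.23) and Inpp5d (0.05) were not called. In the chain 5 genes rose and 1 fell without S25 and S27, with a median of 0.01, and the calls of Prkcd (0.29, adjusted p = 0.169), Ptpn6 (0.32, adjusted p = 0.0912), Btk (-0.50, adjusted p = 0.0733) and Adam10 (-0.45, adjusted p = 0.145) were lost. Adam10 was -0.33 (adjusted p = 0.148) without S30 and S31. The neutrophil covariate left 3 higher and 2 lower, and Ms4a6d (adjusted p = 0.0557) and Ptpn6 (adjusted p = 0.0812) lost their calls. For Trem2 itself the call stood in every alternative run.

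Across all genes, 4151 of 11593 (35.8%) were called, 2079 of them higher in the transplanted cells (17.9% of genes tested) and 2072 lower (17.9%). At 2-fold or more, 793 were higher (6.84%) and 1062 lower (9.16%). For 3671 genes (31.7%) every transplanted library lay on 1 side of every microglia library, 1849 higher (15.9%) and 1822 lower (15.7%). The median log2 fold change over all genes was 0.00. The number called fell to 2706 without S25 and rose to 5770 without S26. It was 2640 in a fit of the 2 compared groups only, which takes the spread from their 7 libraries. Counts of list members below are read against these shares.

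**Figure D1:**
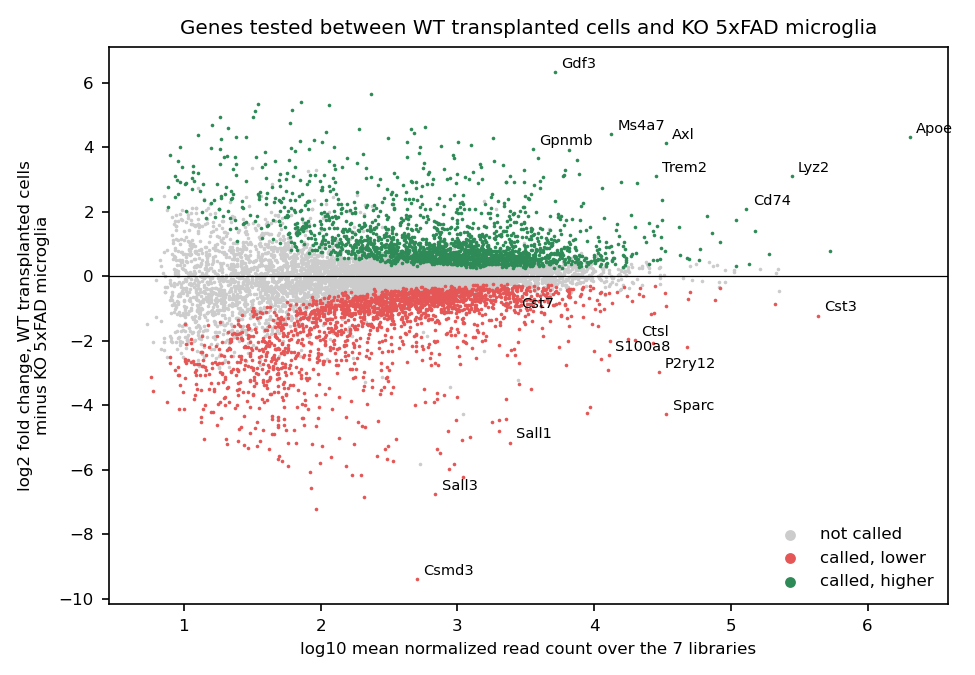
Log2 fold change of each tested gene, transplanted cells minus knockout microglia (y axis), against its mean normalised read count over the 7 libraries (x axis, log10 scale). Green points are the 2079 genes called higher, red points the 2072 called lower and grey points those not called. Selected genes are labelled, among them Gdf3 at 6.32 and Csmd3 at -9.38.

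**Figure D2:**
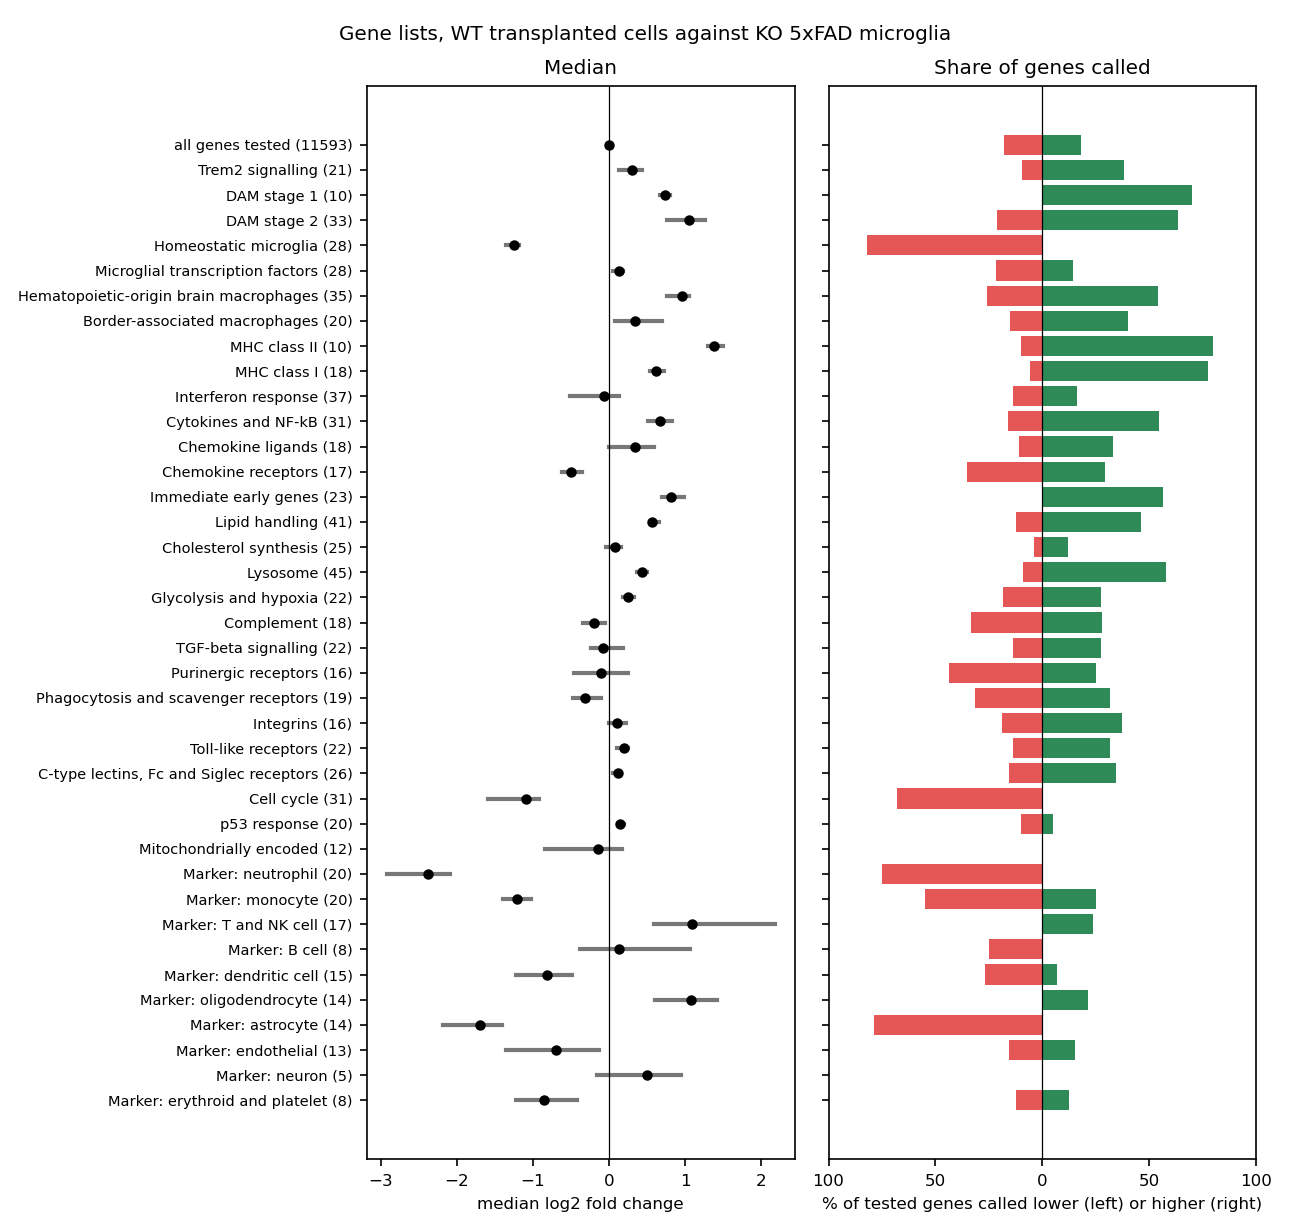
Median log2 fold change of each gene list (dots, left panel), with bars spanning the medians when each of the 7 libraries was left out in turn, and the percent of tested members called lower or higher (right panel). The homeostatic microglia list sits lowest among the microglial programmes at -1.25 and MHC class II highest at 1.38.

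The transplanted cells had less of the homeostatic microglia programme. None of its 28 genes rose and 23 fell. The median on the log2 scale was -1.25, and leaving out any 1 library kept the median between -1.36 and -1.18. Sparc, a secreted matrix protein, was 5255, 3059, 3585 and 3637 in the transplanted cells and 73111, 71863 and 75915 in the microglia (log2 fold change -4.27, SE 0.20, adjusted p = 2.53e-11). Every transplanted library was far below every microglia library. Crybb1, a crystallin gene used as a microglial marker, went from 4517, 5252 and 5192 in the microglia to 338, 115, 260.2 and 288 (log2 fold change -4.42, SE 0.25, adjusted p = 3.25e-10). The fructose transporter gene Slc2a5 (-4.23) and Ecscr (-4.80) fell by similar amounts on the log2 scale. P2ry12, the ADP receptor that steers microglial processes, was 10483, 6576, 6579.5 and 6899 in the transplanted cells against 67152, 45584 and 64608 (log2 fold change -2.96, SE 0.19, adjusted p = 1.9e-09). S28 held the highest level of the 4 transplanted libraries, and all 4 were below the microglia. Siglech, a lectin of microglia and plasmacytoid dendritic cells, fell less (-1.95).

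Not every homeostatic gene fell that far. Tmem119 remained abundant, at 60155, 58411, 57131 and 57005 in the transplanted cells and 75270.1, 150625 and 79525 in the microglia (log2 fold change -0.73, SE 0.21, adjusted p = 0.0109), and its fold change was -0.41 without S26, the library with the highest value. The chemokine receptor gene Cx3cr1 (-0.50, adjusted p = 0.0143) lost its call without S26 (-0.35, adjusted p = 0.0508) or S31 (-0.41, adjusted p = 0.05). Without S30 and S31 neither Tmem119 (-0.70, adjusted p = 0.064) nor Cx3cr1 (-0.32, adjusted p = 0.167) passed the test, nor did they with the neutrophil covariate (adjusted p = 0.131 and 0.111). Csf1r, the receptor that PLX5622 blocks, was 211446, 214669, 211507 and 216212 in the transplanted cells and 153808, 339016 and 156174 in the microglia and was not called (adjusted p = 0.805). The 4 transplanted values lay between S27 and S26. Csf1r was chosen after its values were seen, as were Syk, Plcg2 and Inpp5d above.

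Of 28 transcription factors tested, 4 rose and 6 fell, near the shares over all genes of 17.9% each way. Their median was 0.13. Sall1, which keeps microglia in their resident state, was 251, 98.9, 116 and 118 in the transplanted cells and 3644, 9289 and 3419.9 in the microglia (log2 fold change -5.16, SE 0.40, adjusted p = 1.79e-08). S26 was highest of all, and S28, highest of the transplanted cells, was still far below every microglia library. Its relative Sall3 was 52.6, 18.2, 1.31 and 14.6 against 1112, 2352 and 1287 (log2 fold change -6.76, SE 0.76, adjusted p = 2.4e-06), a fold that depends on the pseudocount because the transplanted values were so low. Zeb1 (-1.59), Mef2c (-0.82) and Mef2a (-0.63) fell by less. Cebpb (1.57) and Bhlhe40 (1.62) rose, as did Nr1h3 (1.49), which encodes the sterol-sensing receptor LXR alpha. Nr1h3 was 149, 124, 141 and 140.3 in the transplanted cells and 55.5, 44.9 and 45.5 in the microglia. The Nr1h3 call was lost without S25 and S27 (1.60, adjusted p = 0.0748) and with the neutrophil covariate (adjusted p = 0.0656). Mef2c (-0.56, adjusted p = 0.118) and Zeb1 (-1.15, adjusted p = 0.0525) also lost theirs without S25 and S27, and Mef2a (-0.58, adjusted p = 0.0685) without S30 and S31. The median of the list turned to -0.30 without S25 and S27 and to -0.09 with the covariate. The lineage factor genes Spi1 (0.13), Irf8 (0.27) and Runx1 (-0.13), named after their values were seen, were not called.

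Of the 10 early DAM genes, 7 rose and none fell, with a median of 0.73. Apoe, the lipid carrier, was 3111696, 3623707, 3597175 and 3448256 in the transplanted cells and 203068, 119275 and 211979 in the microglia (19.9-fold; log2 fold change 4.32, SE 0.19, adjusted p = 1.81e-11). It took from 14.6% to 16.2% of all reads in the transplanted libraries and from 0.663% to 1.21% in the microglia. Lyz2, lysozyme, was 312229, 449079, 507256 and 518934 against 60419, 34356 and 64897 (log2 fold change 3.10, SE 0.21, adjusted p = 4.55e-09). The iron store Fth1 (1.74), the protease inhibitor Timp2 (0.86) and cathepsin D (0.78) rose by less. Ctsd was 572634, 589589, 713735 and 721746 in the transplanted cells against 361888, 385646 and 383219.7, groups that did not overlap, but after quantile normalisation, which sets the top ranks of all libraries equal, its fold change was 0.00 (adjusted p = 1).

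The later, TREM2-dependent DAM genes moved both ways: of 33 tested, 21 rose and 7 fell, with a median of 1.05. The count depended on S26. Without it 16 rose and 9 fell with a median of 0.76, and without S25 and S27 together 21 rose and 2 fell with a median of 1.43. The neutrophil covariate gave 15 higher and 2 lower. Axl, a TAM receptor that recognises dying cells, was 52568, 55631, 58451 and 58919 in the transplanted cells and 3284, 3151 and 3298 in the microglia (log2 fold change 4.12, SE 0.16, adjusted p = 4.65e-12), and both groups were tight. Itgax, encoding CD11c, was 1912, 3219, 3436 and 3637 against 638, 484 and 647 (log2 fold change 2.34, SE 0.23, adjusted p = 4.1e-07). The lipid-droplet coat gene Plin2 (1.27) and the proton-sensing receptor gene Gpr65 (3.29) also rose, and Trem2 is itself on this list. Axl is also on the list of macrophages of hematopoietic origin described below, as is Lyz2 of the early DAM genes. Their rises therefore count in both lists and are not particular to the DAM programme. Timp2 is on both DAM lists.

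Several late DAM genes were lowest in S26. Values for Gpnmb, a lysosome-linked glycoprotein, were 3053, 4689.6, 7737 and 7609.7 in the transplanted cells and 802, 54.7 and 979.9 in the microglia (log2 fold change 3.93, SE 0.82, adjusted p = 0.00133). The groups did not overlap, and the fold change was 2.60 without S26. Spp1, osteopontin, was 4776, 10975, 11469 and 12139.7 against 1753, 244 and 1928 (log2 fold change 3.30, SE 0.98, adjusted p = 0.0151), with S28 well below the other transplanted libraries. Its call was lost without S26 (2.33, adjusted p = 0.0617). The lipoprotein lipase gene Lpl was 1724, 2026, 2901 and 2931 against 1572, 493 and 1404 (log2 fold change 1.18, SE 0.37, adjusted p = 0.0181), so S25 and S27 came close to S28. Its call was lost without S26 (0.65, adjusted p = 0.093), S30 (adjusted p = 0.0511) or S31 (adjusted p = 0.0505). Clec7a, the lectin dectin-1, was 5783, 6484, 7397 and 8471 against 5449.7, 757 and 5497 (log2 fold change 1.30, SE 0.46, adjusted p = 0.0362). S25 and S27 lay just under the lowest transplanted library, and without S26 the fold change was 0.35 (adjusted p = 0.173). Its call was also lost without S29, S30 or S31, at adjusted p-values from 0.0563 to 0.0819. Neither edgeR (0.78, adjusted p = 0.155) nor DESeq2 (0.85, adjusted p = 0.146) called it. The limma call was lost after quantile normalisation (adjusted p = 0.0709) and with no gene filter (adjusted p = 0.0512). Leaving out S30 and S31 together also ended the calls of Spp1 (2.95, adjusted p = 0.105), Lpl (0.86, adjusted p = 0.176) and Clec7a (1.11, adjusted p = 0.186). With the neutrophil covariate none of the 4 was called. Fold changes were 3.97 for Gpnmb (adjusted p = 0.0551), 2.46 for Spp1 (adjusted p = 0.318), 1.41 for Lpl (adjusted p = 0.119) and 2.05 for Clec7a (adjusted p = 0.0626). Of these, only that of Spp1 was smaller than in the main fit. These 4 genes were named after their values were seen.

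Other DAM genes fell. Ctsl, the protease cathepsin L, was 7255, 8229.5, 9308 and 9881 in the transplanted cells and 40859, 23564 and 40759 in the microglia (log2 fold change -1.98, SE 0.17, adjusted p = 6.29e-08), and the groups did not overlap with or without S26. Ccl6, a chemokine, fell further on the log2 scale (log2 fold change -2.18, SE 0.15, adjusted p = 3.72e-09), and Cd9, a tetraspanin, fell less (-1.15). The Cd9 call was lost without S25 and S27 (-0.50, adjusted p = 0.214) and with the neutrophil covariate (adjusted p = 0.0526). Csf1, a ligand of the CSF1 receptor, went from 1361, 778 and 1334 in the microglia to 284, 332, 569 and 524 (log2 fold change -1.45, SE 0.30, adjusted p = 0.00138). It was -0.92 (adjusted p = 0.149) without S25 and S27, and with the covariate its call was lost too (adjusted p = 0.0718). Cst7, cystatin F, was 1079, 1665, 1922 and 1950.3 in the transplanted cells and 5177, 1576 and 5148 in the microglia (log2 fold change -1.11, SE 0.31, adjusted p = 0.0104). S26 lay within the range of the transplanted cells while S25 and S27 were far above it. The Cst7 call was lost without S25 (-0.82, adjusted p = 0.0803) or S27 (-0.83, adjusted p = 0.0763), the fold change was -1.68 without S26, and without S25 and S27 together its sign turned, to 0.03 (adjusted p = 0.953). With the covariate it was -0.52 (adjusted p = 0.489). Csf1 and Cst7 were named after their values were seen.

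Lipid-handling genes rose more often than all genes did. Of 41 tested, 19 rose and 5 fell, with a median of 0.57. Beside Apoe and Plin2, the scavenger receptor gene Msr1 was 3610.02, 2907, 2811 and 2798 against 294, 157 and 359 (log2 fold change 3.56, SE 0.24, adjusted p = 3.69e-09), and the groups stood apart. Cd36, which takes up fatty acids and oxidised lipoproteins, rose (2.91), and so did Acsl1, which activates fatty acids (1.52). Mgll, which breaks down monoacylglycerols, was 201, 189.9, 260.2 and 173 in the transplanted cells and 1244, 1555 and 1199 in the microglia (log2 fold change -2.69, SE 0.18, adjusted p = 3.69e-09). The fatty-amide hydrolase gene Naaa (-0.81) and Mylip, which directs the LDL receptor to degradation (-0.69), fell by less. Cholesterol synthesis gave few calls, 3 higher and 1 lower of 25 with a median of 0.08 that was -0.04 without S25. Leaving out S28 gave 5 higher, S27 1 higher, and S26 6 higher and 3 lower. Hmgcs1, an early enzyme, fell (-0.76), and the regulator gene Srebf1 rose (0.77). Dhcr7 (0.64) lost its call without S27 (0.49, adjusted p = 0.0554). Lss (1.00, adjusted p = 0.0325) lost its call without S25 (0.52, adjusted p = 0.255), S27, S29 or S30, was 1.60 without S26, and turned to -0.19 (adjusted p = 0.721) without S25 and S27 together. That pair also carried the calls of Hmgcs1 (-0.58, adjusted p = 0.0821 without it), Srebf1 (0.41, adjusted p = 0.332) and Dhcr7 (0.33, adjusted p = 0.348). Without S30 and S31, Srebf1 (0.55, adjusted p = 0.102), Dhcr7 (0.52, adjusted p = 0.0833) and Lss (1.04, adjusted p = 0.102) were not called. With the neutrophil covariate 12 of the 41 lipid-handling genes rose and 2 fell, and Mylip (adjusted p = 0.0716), Dhcr7 (adjusted p = 0.0782) and Lss (0.52, adjusted p = 0.557) lost their calls.

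Lysosomal genes also moved mostly up: 26 of 45 rose and 4 fell, with a median of 0.43, and leaving out any 1 library kept the median between 0.36 and 0.50. The aspartic protease gene Ctse was 1007, 1174, 950.3 and 879 in the transplanted cells against 156, 52.5 and 139.8 (log2 fold change 3.24, SE 0.30, adjusted p = 1.9e-07), the widest gap of those named by smallest p. Ctsc, which activates serine proteases, rose (1.52), as did the lysosomal lipase gene Lipa (1.14) and the sugar hydrolase genes Gusb (0.74) and Glb1 (0.80). Ctsl, described above, was among those that fell. Ctso (-0.43) lost its call without S25 (-0.37, adjusted p = 0.0708) or S27 (-0.38, adjusted p = 0.062), was -0.19 (adjusted p = 0.476) without both, and was not called without S30 and S31 (adjusted p = 0.0857) or with the neutrophil covariate (adjusted p = 0.0617). With that covariate 16 lysosomal genes rose and 2 fell. Gla, alpha-galactosidase, was 673, 591, 869 and 768 in the transplanted cells and 283, 154 and 377 in the microglia (log2 fold change 1.49, SE 0.27, adjusted p = 0.000334).

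Gla is shown because its promoter held the E box of lysosomal genes, a motif that the lysosome regulator TFEB is known to bind, more than once. The letters TCACGTGA, which read the same on both strands, were searched in the 250 bases before each start site in the RefSeq promoter table (GRCm38.p6). They were present for 245 of 27025 genes (0.91%) and for 6 of the 34 lysosomal genes with an entry (17.6%), namely Atp6v1a, Cln3, Ctsa, Ctsd, Gla and Mcoln1. Of these, Atp6v1a was not called and the other 5 rose. The motif was not particular to lysosomal genes. It was also present for 2 of the 21 homeostatic microglia genes with an entry (9.5%, Cd164 and Siglech) and 1 of 15 class I genes (6.7%, Calr). None of the 7 class II or 25 late DAM genes with an entry held it. In Gla the matches began 228 and 195 bases before the RefSeq start site. The 130 bases at chrX:134601126-134601255 (minus strand) that lie outside the gene model are given 5′ to 3′, with the motif in capitals.
Gla: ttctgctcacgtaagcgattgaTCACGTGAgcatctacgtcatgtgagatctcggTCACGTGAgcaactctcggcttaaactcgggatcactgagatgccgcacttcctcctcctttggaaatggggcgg
Gla and the motif were chosen after values and sequences were seen, and a match is a description of the letters, not a binding site.

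Antigen-presentation genes rose together. For MHC class II, 8 of 10 rose and 1 fell, with a median of 1.38. H2-Aa, a class II alpha chain (chr17:34282744-34287823), was 34962, 29929.7, 58215 and 58564 in the transplanted cells and 12913, 13675 and 12646 in the microglia (log2 fold change 1.73, SE 0.18, adjusted p = 9.96e-07). H2-Eb1, a beta chain (chr17:34305867-34316674), was 28676, 24714, 45962 and 44447 against 9821, 14412 and 9543 (log2 fold change 1.65, SE 0.19, adjusted p = 2.46e-06). S30 and S31 were highest for both genes, and the groups did not overlap. H2-Ab1 (1.86), the invariant chain gene Cd74 (2.09) and the peptide-loading gene H2-DMa (1.61) rose likewise. H2-Oa, which restrains peptide loading, fell instead, from 740.2, 1015 and 736 in the microglia to 424, 325, 442 and 434 (log2 fold change -1.02, SE 0.15, adjusted p = 6.1e-05).

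The promoters of H2-Aa and H2-Eb1 are shown because they shared the Y box, the letters CTGATTGG, which hold an inverted CCAAT box that NF-Y is known to bind. On either strand the Y box was present for 1198 of 27025 genes (4.43%), for 3 of the 7 class II genes with an entry (42.9%; H2-Aa, H2-Eb1 and H2-Oa) and for 6 of 15 class I genes (40.0%). None of the 21 homeostatic microglia genes with an entry held it. H2-Oa held the motif and fell. The 250 bases before the RefSeq start site (GRCm38.p6) are at chr17:34287824-34288073 on the minus strand for H2-Aa and at chr17:34305617-34305866 on the plus strand for H2-Eb1. They are given 5′ to 3′ with the motif in capitals, which began 51 and 62 bases before the start site.
H2-Aa: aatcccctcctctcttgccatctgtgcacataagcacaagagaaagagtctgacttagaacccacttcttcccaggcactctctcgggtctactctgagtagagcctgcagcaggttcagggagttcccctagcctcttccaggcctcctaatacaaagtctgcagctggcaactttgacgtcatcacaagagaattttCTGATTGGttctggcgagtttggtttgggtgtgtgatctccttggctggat
H2-Eb1: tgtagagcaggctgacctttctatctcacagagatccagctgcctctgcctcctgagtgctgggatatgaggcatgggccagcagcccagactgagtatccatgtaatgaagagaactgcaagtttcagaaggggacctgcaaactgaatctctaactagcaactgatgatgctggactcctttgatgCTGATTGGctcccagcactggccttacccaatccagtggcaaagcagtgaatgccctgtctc
The motif was chosen after the sequences were seen.

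For MHC class I and its loading machinery, 14 of 18 rose and 1 fell, with a median of 0.62. H2-D1 (1.35) and H2-K1 (1.28), the classical heavy chains, and H2-Q6 (1.24) rose, although reads of these near-identical genes may have been shared in counting. Nlrc5, the class I transactivator, was 343, 438, 489 and 577 in the transplanted cells and 154, 169.6 and 153 in the microglia (log2 fold change 1.51, SE 0.25, adjusted p = 0.000153). H2-M3 rose by less (0.85). The peptide trimmer gene Erap1 fell (-0.39), a call lost without S25 (-0.31, adjusted p = 0.119) or S27 (-0.33, adjusted p = 0.0933), and smaller without both (-0.11, adjusted p = 0.683). Of the class I genes, 9 rose without S30 and S31. The interferon-response genes did not follow: 6 of 37 rose and 5 fell, with a median of -0.06. That count turned on S26, since without it 3 rose and 17 fell (median -0.51), and without S25 and S27 together 16 rose and 1 fell (median 0.93). Without S30 and S31, 3 rose and 4 fell, and with the neutrophil covariate 3 rose and 1 fell (median 0.39). Without S25 alone 2 fell, and without S27 or S29 alone 3 fell. The tetherin gene Bst2 rose, at 10448, 11260.01, 13605 and 12835 against 3029.7, 2006 and 2991 (log2 fold change 2.19, SE 0.14, adjusted p = 1.24e-09), as did Ifi207 (2.14). Parp14 (-0.81) and Trim30a (-1.14) fell, and Ifit3, named after its values were seen, was 679.95, 640.2, 869 and 818 against 2071, 444 and 2192, within the range of the microglia. Trim30a was -0.31 (adjusted p = 0.42) without S25 and S27. Of the others called, Oas1g (1.22, near-identical copies) was 0.54 (adjusted p = 0.0618) without S26, Oasl1 (0.64) lost its call without S25, S26, S29 or S31 (adjusted p = 0.0602 to 0.0929), and Stat2 (0.54) and Ddx58 (-0.55) lost theirs without S25 (adjusted p = 0.0712 and 0.0589). Without both S25 and S27, Stat2 was 0.42 (adjusted p = 0.25) and Ddx58 -0.20 (adjusted p = 0.49). Without S30 and S31 the calls of Oas1g (adjusted p = 0.0988), Oasl1 (adjusted p = 0.109) and Ddx58 (adjusted p = 0.0907) were lost. The neutrophil covariate ended those of Erap1 (adjusted p = 0.187), Trim30a (adjusted p = 0.106), Oas1g (adjusted p = 0.0565), Oasl1 (adjusted p = 0.165) and Ddx58 (-0.31, adjusted p = 0.374).

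Genes known from macrophages of hematopoietic origin in the brain rose and fell in 2 blocks. Of 35 tested, 19 rose and 9 fell, with a median of 0.97. Ms4a7 was 16246, 20411, 26888 and 26708 in the transplanted cells and 1275, 679.7 and 1309 in the microglia (log2 fold change 4.40, SE 0.21, adjusted p = 3.49e-11). Cybb, the catalytic subunit of the phagocyte NADPH oxidase, was 26585, 22384, 25172 and 25397 against 3945, 2341 and 3842 (log2 fold change 2.92, SE 0.16, adjusted p = 3.47e-10). The membrane protein genes Tmem176a (2.89) and Tmem176b (2.35) rose with them, in groups that did not overlap. Those that fell included Ifitm6 (-2.02) and Hp (adjusted p = 0.000153), which classical monocytes and neutrophils also carry. The summed neutrophil markers moved with both genes, at 25906.5 to 33550.2 in the transplanted cells against 58658.9 in S26 and 137894.2 and 148637.1 in S25 and S27. With each library's neutrophil value as a covariate, Ifitm6 was -1.04 (adjusted p = 0.0887) and Hp -0.90 (adjusted p = 0.143). On this list 2 genes then fell and 18 rose, and without S25 and S27 3 fell and 19 rose.

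Border-associated macrophages line the meninges and vessels of the brain. Of 20 of their markers, 8 rose and 3 fell, with a median of 0.35 that turned to -0.37 without S30 and S31. The endocytic adaptor gene Dab2 was 7967, 6507, 8599.6 and 8294 against 1488, 1919 and 1345 (log2 fold change 2.32, SE 0.16, adjusted p = 3.36e-09). The lectin gene Clec4n (2.51) and the chemokine gene Pf4 (2.14) also rose, whereas the haemoglobin scavenger gene Cd163 was 131, 40.9, 61.8 and 59.8 against 308, 692 and 289 and fell (log2 fold change -2.55, SE 0.38, adjusted p = 5.54e-05). Cd209a fell too (-1.31). Cd209f (-1.21, adjusted p = 0.0331) was -0.73 (adjusted p = 0.0833) without S28 and lost its call without S25, S27 or S29 as well (adjusted p = 0.0787 to 0.0942). Leaving out S25 and S27, Cd209a (-0.85, adjusted p = 0.189) and Cd209f (-1.17, adjusted p = 0.234) were not called, nor were they with the neutrophil covariate (-0.69, adjusted p = 0.324 and -0.90, adjusted p = 0.405), so that 1 marker fell in each of these fits.

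Phagocytic and scavenger receptors divided evenly, with 6 of 19 genes higher, 6 lower and a median of -0.32. The mannose receptor gene Mrc1 (1.86) and Stab1 (1.91) rose with Axl, Msr1 and Cd36. The phosphatidylserine receptor gene Timd4 fell from 93.6, 60.2 and 91.1 in the microglia to 0, 1.14, 5.26 and 1.22 (log2 fold change -5.12, SE 0.65, adjusted p = 9.18e-06). Pros1, a TAM-receptor ligand, fell (-1.55). Integrins gave 6 higher and 3 lower of 16 (median 0.11). Itgal, encoding the leukocyte integrin CD11a, was 3025, 4295, 4099 and 4031 against 283, 755 and 413 (log2 fold change 3.10, SE 0.32, adjusted p = 7e-07), and Itga4 rose (2.53). Itgb3 fell from 1075, 2808 and 1226 in the microglia to 135, 121, 147 and 87.8 (log2 fold change -3.67, SE 0.30, adjusted p = 4.17e-08), and Itgam, encoding the CD11b of the sort, fell by less (-0.76). Itga2b (-4.47) also fell, a call lost without S25 (-3.82, adjusted p = 0.0502), without S25 and S27 (-2.60, adjusted p = 0.332), without S30 and S31 (-2.70, adjusted p = 0.134) and with the neutrophil covariate (-1.44, adjusted p = 0.6). The integrin median turned to -0.09 without S25 and S27, with 4 higher and 3 lower.

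Receptors that sense chemokines and microbes changed in both directions. Of 17 chemoattractant receptors, 5 rose and 6 fell (median -0.50). Cxcr4, which holds blood cells in the marrow, was 1544, 1674, 1494 and 1548 in the transplanted cells and 129.5, 86.5 and 159 in the microglia (log2 fold change 3.68, SE 0.28, adjusted p = 1.46e-08). Ccr1 rose (2.82). Ccr2 (-1.75), the receptor of classical monocytes, and Cxcr2 (-2.23), that of neutrophils, were both lower in the transplanted cells. Both moved with the neutrophil markers given above, and Cxcr2 is itself among the markers that make up the covariate. With the neutrophil covariate neither was called (Ccr2 -1.20, adjusted p = 0.0935; Cxcr2 -1.32, adjusted p = 0.153), nor without S25 and S27 (Ccr2 -0.92, adjusted p = 0.094; Cxcr2 -1.88, adjusted p = 0.0514). In these fits 1 and 2 receptors were called lower. Ackr3 (-3.34, adjusted p = 0.0151) lost its call without S25 (adjusted p = 0.0508) or S27 (adjusted p = 0.0605), and was -2.71 (adjusted p = 0.24) without both and -1.97 (adjusted p = 0.425) with the covariate. Of 22 Toll-like receptor genes, 7 rose and 3 fell (median 0.20), or 5 without S25. Tlr8, a sensor of RNA, went from 144, 96.3 and 153 in the microglia to 1557, 1169, 1280.2 and 1188 (log2 fold change 3.32, SE 0.27, adjusted p = 3.97e-08), Tlr2 rose (1.82), and Tlr3 (-1.79) and Tlr7 (-0.85) fell. Without S25 and S27 the Tlr7 call was lost (-0.67, adjusted p = 0.0597) and the median of the list was -0.09. Of 26 lectin, Fc and Siglec receptors, 9 rose and 4 fell (median 0.12), or 5 and 5 without S30 and S31. Clec12a, a myeloid lectin, was 7260.3, 7514, 6042 and 6288 against 962, 455 and 1199.9 (log2 fold change 3.06, SE 0.24, adjusted p = 2.29e-08), and Siglec1 (3.18) and Siglece (adjusted p = 1.51e-05) rose, whereas Siglecf was 48.1, 30.7, 63.1 and 58.6 against 673, 498 and 563 and fell (log2 fold change -3.54, SE 0.23, adjusted p = 2.76e-09).

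Inflammatory genes rose more often than they fell, 17 against 5 of 31 cytokine and NF-kB genes, with a median of 0.67. The costimulatory receptor gene Cd40 was 758, 794, 996 and 1092 in the transplanted cells and 85.3, 85.4 and 88.9 in the microglia (log2 fold change 3.36, SE 0.24, adjusted p = 8.49e-09), and both groups were tight. Il1b, interleukin 1 beta, was 2489, 4907, 6623 and 6763 against 1084, 792 and 935 (log2 fold change 2.38, SE 0.33, adjusted p = 2.35e-05), with S28 lowest of the transplanted cells and above every microglia library. Tnfaip2 (1.55), the LPS co-receptor gene Cd14 (1.22) and Cd83 (1.05) rose. Il6 fell, at 7.83, 0, 13.1 and 8.54 against 86.4, 60.2 and 109 (log2 fold change -3.84, SE 0.72, adjusted p = 0.000526), as did the inflammasome adaptor gene Pycard (-1.11) and Nfkb1 (-0.46). Of the 31, 11 rose and 3 fell without S25 and S27, and again without S30 and S31, and 9 rose and 2 fell with the neutrophil covariate. That covariate ended the calls of Il6 (-2.46, adjusted p = 0.136) and Nfkb1 (-0.52, adjusted p = 0.0722), and Nfkb1 was -0.35 (adjusted p = 0.0745) without S30 and S31. Of 18 chemokine ligands, 6 rose and 2 fell, with a median of 0.35 that turned to -0.19 without S30 and S31. Cxcl16, which also takes up oxidised lipoproteins, was 16068, 18001, 18836 and 18709 against 2819.96, 2429.7 and 2809.6 (log2 fold change 2.74, SE 0.09, adjusted p = 2.72e-12). Cxcl14, one of the largest rises, was 1178, 1650, 1971 and 2038 against 93.6, 77.7 and 106 (4.17). The neutrophil attractant gene Cxcl1 (5.41) and Ccl12 (1.49) rose, and Ccl9 fell from 5473, 3901 and 5031 in the microglia to 393, 287, 287 and 400.1 (log2 fold change -3.81, SE 0.16, adjusted p = 1.01e-11).

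Immediate early genes, which respond to stimulation within minutes, gave 13 higher and none lower of 23, with a median of 0.81. Fos was 19937, 34146, 27847 and 27182 in the transplanted cells and 7667, 14932 and 7269 in the microglia (log2 fold change 1.51, SE 0.26, adjusted p = 0.000217). Nr4a1 (2.08) and Dusp1 (1.41) rose too. The heat-shock genes Hspa1a (3.60) and Hspa1b (3.93), near-identical copies, were called although the groups overlapped, with Hspa1a at 3267, 21883, 11867 and 10828 against 370.1, 4324 and 328. None of the 23 was called higher when S25 and S27 were left out together, and 8 were called higher without S25, S30 or S31 alone. With that pair left out, Fos was 0.84 (adjusted p = 0.0742), Nr4a1 1.44 (adjusted p = 0.0609), Dusp1 0.66 (adjusted p = 0.118), Hspa1a 1.18 (adjusted p = 0.213) and Hspa1b 1.16 (adjusted p = 0.235). With the neutrophil covariate 2 genes were called higher and 1 lower, and these 5 were not called (Fos 0.91, adjusted p = 0.109; Nr4a1 1.72, adjusted p = 0.0591; Dusp1 0.83, adjusted p = 0.133; Hspa1a 2.18, adjusted p = 0.155; Hspa1b 2.35, adjusted p = 0.164). Without S30 and S31, 7 were called higher.

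Purinergic receptors, which microglia use to sense injury, gave 4 higher and 7 lower of 16. Their median of -0.11 turned to 0.25 without S28 and 0.08 without S27, was -0.46 without S30, and was -0.71 with 1 higher without S30 and S31. Adora3, an adenosine receptor gene, fell from 1251, 1762 and 1557 in the microglia to 149, 100.1, 84.1 and 101 (log2 fold change -3.82, SE 0.22, adjusted p = 4.7e-10). P2ry13 (-1.16), Gpr34 (-2.06) and the ATP-degrading enzyme gene Entpd1 (-0.74) fell with P2ry12. The ion channel gene P2rx4 rose instead, at 8145, 9225, 8937 and 9406 against 2768, 2621 and 2647 (log2 fold change 1.73, SE 0.09, adjusted p = 1.37e-10), as did P2ry14 (1.62) and Nt5e, which makes adenosine (2.67, 1.74 without S26). The calls of P2ry14 (1.22, adjusted p = 0.0773) and Nt5e (2.34, adjusted p = 0.0623) were lost without S30 and S31. In the complement list, 5 of 18 rose and 6 fell (median -0.20), with 3 higher without S25, S27, S30 or S31. C3, the central component, was 1798, 1852, 2082 and 2200.3 against 785, 642 and 1103 (log2 fold change 1.26, SE 0.23, adjusted p = 0.000441), and C3ar1, the receptor of its fragment, rose (1.01). C2 (-2.77) and Masp1 (-1.30) fell, and C4b (-1.05) lost its call without S26 (-0.84, adjusted p = 0.0508) or S29 (-0.79, adjusted p = 0.0564), or with the neutrophil covariate (-0.78, adjusted p = 0.327). The complement median turned to 0.07 without S25 and S27 and to 0.10 with the covariate. TGF-beta signalling, which microglia need to keep their identity, gave 6 higher and 3 lower of 22, with 1 lower without S25. Its median of -0.09 turned to 0.19 without S26 and to 0.03 without S30 and S31. Without S25 and S27, 3 were higher and 4 lower, and with the neutrophil covariate 2 and 2. The target gene Tgfbi was 12608, 13093, 12232 and 12246 against 2495, 3024 and 2335 (log2 fold change 2.27, SE 0.11, adjusted p = 5.19e-11). The receptor gene Tgfbr2 rose (0.95), while Tgfbr1 fell (-0.61, lost without S25 at adjusted p = 0.0542), as did Smad2 (-0.60), which passes on the signal. Tgfbr2 was 0.37 (adjusted p = 0.218) and Tgfbr1 -0.68 (adjusted p = 0.0905) without S25 and S27. The Tgfbr2 call was also lost with the neutrophil covariate (adjusted p = 0.0525), and that of Tgfbr1 without S30 and S31 (-0.47, adjusted p = 0.135). Glycolysis and hypoxia genes gave 6 higher and 4 lower of 22 (median 0.25), with Pfkp (1.03) and Gpi1 (0.70) higher and Pdk1 (-0.83) and Hif1a (-1.08) lower. The Hif1a call was lost without S25 and S27 (-0.17, adjusted p = 0.646), with the neutrophil covariate (-0.78, adjusted p = 0.199) and when the closest libraries were averaged (adjusted p = 0.0525). Of these 22 genes, 8 rose and 1 fell without S25 and S27, 2 rose and 3 fell without S30 and S31, and 5 rose and 1 fell with the covariate. Of 12 mitochondrially encoded genes none was called, while 7 were lower without S26 and 6 higher without S25 and S27.

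Cell cycle genes were lower, 21 of 31 with none higher and a median of -1.10. Ccne2, a cyclin of DNA replication entry, was 19.01, 14.8, 7.89 and 17.1 in the transplanted cells and 218, 49.3 and 175 in the microglia (log2 fold change -3.05, SE 0.45, adjusted p = 4.96e-05). Ccna2 (-1.50), Tyms (-1.13) and Cenpe (-2.99) fell. Mki67, the proliferation marker, was 31.3, 7.96, 43.4 and 32.9 against 274, 44.9 and 235 (log2 fold change -2.49, SE 0.66, adjusted p = 0.00761), and S26 lay close to S30. Its call was lost without S25 (-2.02, adjusted p = 0.0565). The count rested on S25 and S27: 7 genes were lower and 1 higher without S25, 9 were lower without S27, and 1 was lower and 2 higher without both. Without both, Mki67 was -0.84 (adjusted p = 0.558), Ccna2 -0.60 (adjusted p = 0.163), Tyms -0.64 (adjusted p = 0.148) and Cenpe -1.33 (adjusted p = 0.259). These 2 libraries also held the most neutrophil and astrocyte RNA. Of the 31 genes, 1 was lower and none higher with the neutrophil covariate (median -0.27). In that fit Mki67 was -0.70 (adjusted p = 0.642), Ccna2 -0.82 (adjusted p = 0.163), Tyms -0.71 (adjusted p = 0.161) and Cenpe -2.18 (adjusted p = 0.124). The part of astrocyte RNA was not tested.

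Markers of other cells in the gate moved with the groups. Of 20 neutrophil markers, 15 fell and none rose, with a median of -2.39. The calprotectin gene S100a8 was 2234, 4123, 5043 and 5086 in the transplanted cells and 29831, 9755 and 33425 in the microglia (log2 fold change -2.44, SE 0.39, adjusted p = 0.000109). S26 was nearer to the transplanted cells than S25 and S27 were, and without those 2 libraries 4 markers were called lower. Ly6g (-2.68) and Camp (-2.44) fell. S100a8 was -1.31 (adjusted p = 0.0501) without S25 and S27. With the neutrophil covariate, which is built from these markers, 1 was lower, and S100a8 (-1.24, adjusted p = 0.106), Ly6g (-1.51, adjusted p = 0.102) and Camp (-1.03, adjusted p = 0.106) were not called. Mpo, of neutrophil precursors and named after its values were seen, was 2460.4, 0, 1203 and 1526 against 6763, 276 and 7346 and was not called, with S29 at 0. Of 20 monocyte markers, 11 fell and 5 rose (median -1.21). Plac8 was 348, 168, 162 and 155 against 1187, 513 and 1367 (log2 fold change -2.26, SE 0.32, adjusted p = 3.4e-05), and Ly6c2 was 795, 337, 594 and 665 against 2912, 1042 and 3032 (log2 fold change -1.88, SE 0.36, adjusted p = 0.000612), whereas Thbs1 rose (1.45). Ly6c2 was -0.87 (adjusted p = 0.176) without S25 and S27 and -0.41 (adjusted p = 0.448) with the covariate, and 4 and 2 monocyte markers were lower in these fits. Ly6c2 was named after its values were seen.

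Among cells outside the gate, 11 of 14 astrocyte markers fell and none rose (median -1.69), with 7 lower without S25 and 2 lower without S25 and S27. Slc1a3, a glutamate transporter gene, was 246, 122, 225 and 229 in the transplanted cells and 4929.5, 3439.9 and 4924 in the microglia (log2 fold change -4.46, SE 0.28, adjusted p = 1.19e-09), and Gja1 also fell (-3.24). Gja1 was not called with the neutrophil covariate (-1.91, adjusted p = 0.0574), when 1 astrocyte marker was lower. The summed astrocyte markers were 1590.9 to 2616.2 in the transplanted cells, 6563.5 in S26, and 12399.4 and 12516.4 in S25 and S27. Slc1a3 alone gave 3439.9 of the 6563.5 in S26. Its call stood in every alternative run, unlike that of Gja1, so it did not move as the other markers did. Which cells its RNA came from was not tested. Oligodendrocyte markers gave 3 higher and none lower of 14 (median 1.08), with 7 higher without S28, 1 higher and 1 lower without S30 or S31 alone, and a median of -1.50 without both. T and NK cell markers gave 4 higher of 17 (median 1.10), 11 without S28, 2 without S25, S29 or S31, 1 without S27 or S30, and none higher with 1 lower without S30 and S31. Cd3e was 13.4, 105, 405 and 331 against 8.22, 33.9 and 4.34 (log2 fold change 3.32, SE 0.86, adjusted p = 0.00632), groups that overlapped. Its call was lost without S25 and S27 (1.78, adjusted p = 0.33), without S30 and S31 (1.70, adjusted p = 0.14) and with the neutrophil covariate (2.79, adjusted p = 0.188). The general myeloid markers stayed high in all 7 libraries, with a summed value over 13 genes of 701030.5 to 721412.7 in the transplanted cells and 820903.6 to 1032206.4 in the microglia. Of these 13 genes 3 rose and 6 fell, with a median of -0.03. Adgre1, encoding F4/80, rose (1.55), and P2ry12 (-2.96) and Sall1 (-5.16), described above, were among those that fell.

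**Figure D3:**
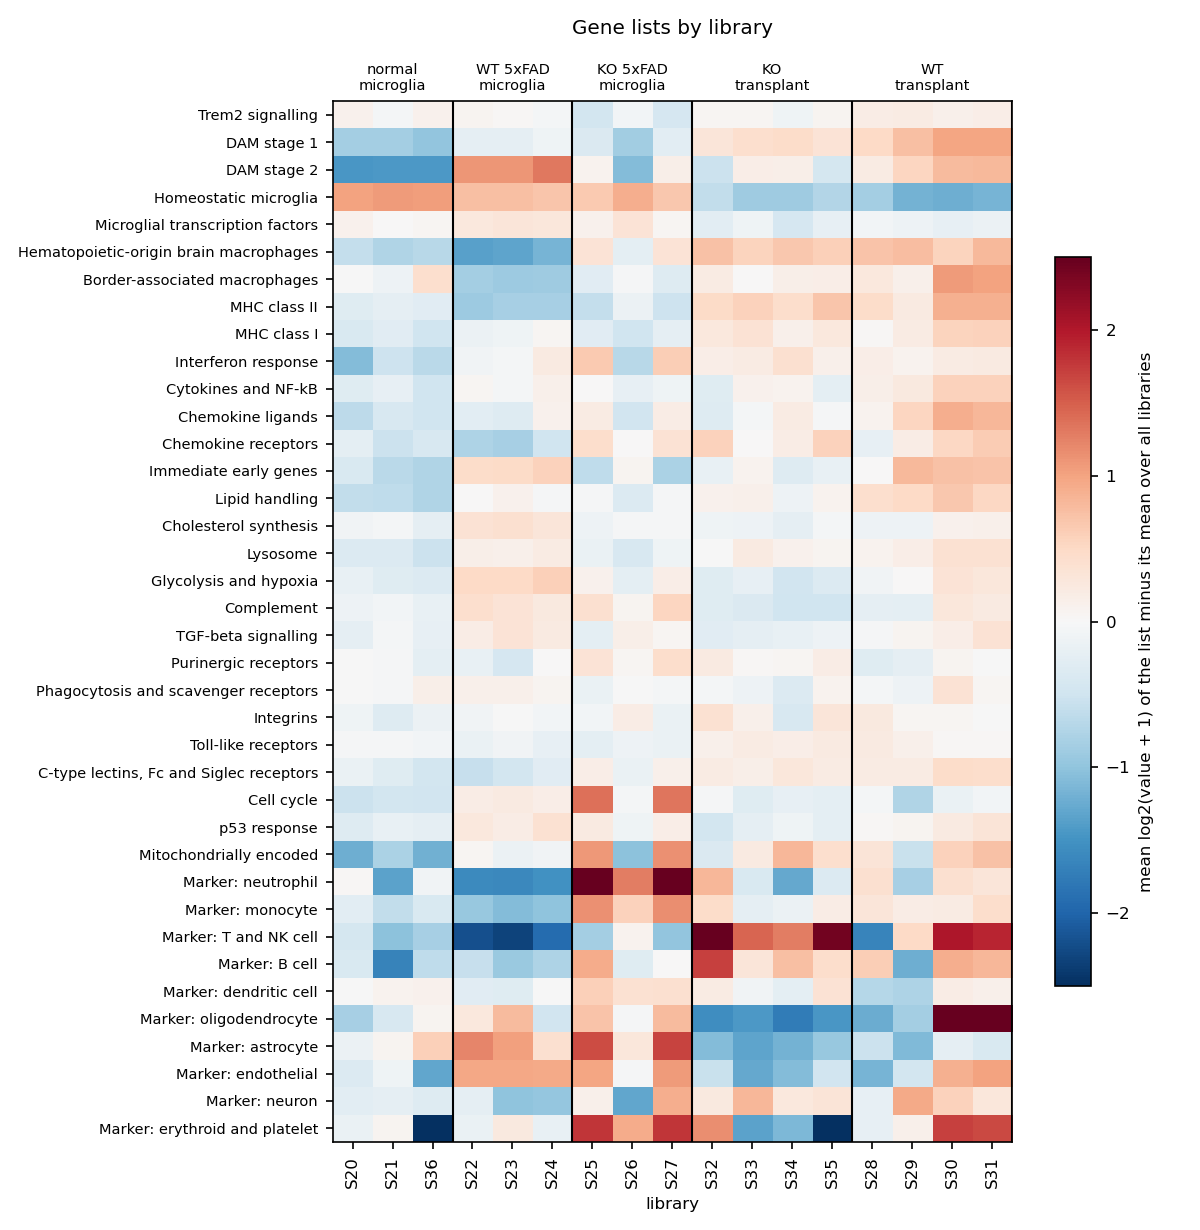
Mean log2 value of each gene list in each of the 17 libraries (columns, by group), as the difference from that list's mean over all libraries (colour, log2 units, cut at 2.5 in either direction). S26 differs from S25 and S27 in the neutrophil, astrocyte and cell cycle rows, and S30 and S31 stand out in the oligodendrocyte row, where their summed values were 50326.7 and 49847.8.

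The 12 largest rises, among genes above the median level whose libraries did not overlap, were Gdf3, Runx3, Apoc4, Vnn3, Ms4a7, Apoe, Emilin1, Cxcl14, Axl, Sorbs3, Col14a1 and Acp5, from 6.32 to 3.99 on the log2 scale. Gdf3 (chr6:122605403-122610087), a TGF-beta family ligand, was 6737, 4845, 12405 and 12159 in the transplanted cells and 141, 60.2 and 132 in the microglia (79.8-fold; log2 fold change 6.32, SE 0.33, adjusted p = 1.4e-10). Runx3, a transcription factor of lymphoid and myeloid cells, was 917, 1289.5, 827 and 866 against 11.3, 105 and 45.5 (log2 fold change 4.61, SE 0.50, adjusted p = 1.52e-06). Apoc4, of the Apoe gene cluster, was 720.2, 583, 844 and 929 against 65.8, 6.57 and 65.04 (log2 fold change 4.56, SE 0.61, adjusted p = 1.52e-05). Its microglia values were low. The matrix genes Emilin1 (4.29) and Col14a1 (4.02) and the phosphatase gene Acp5 (3.99), a marker of osteoclasts and macrophages, rose alongside.

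The 12 largest falls were Csmd3, Sall3, Upk1b, Nav3, Mlph, Prg2, Liph, Sall1, Jam2, Sgce, Ecscr and Klk8, from -9.38 to -4.79. Csmd3 was 7.83, 0, 0 and 0 in the transplanted cells and 1375, 823 and 1332 in the microglia (log2 fold change -9.38, SE 0.70, adjusted p = 1.22e-08). With 3 transplanted libraries at 0 its fold depends on the pseudocount. Mlph, an adaptor of organelle transport, was 60.4, 21.6, 47.3 and 28.1 against 1751, 2734 and 1957 (log2 fold change -5.82, SE 0.31, adjusted p = 1.4e-10), and Liph, a lipase gene, 51.4, 48.9, 24.97 and 34.2 against 1551, 1614 and 1673 (log2 fold change -5.36, SE 0.28, adjusted p = 1.4e-10). Jam2, a junction protein gene, was 149.9, 45.5, 78.9 and 46.4 against 2818, 1955 and 2526 (log2 fold change -5.07, SE 0.34, adjusted p = 3.39e-09), and Nav3 76.1, 44.4, 10.5 and 24.4 against 1908, 2167 and 1905 (log2 fold change -5.97, SE 0.41, adjusted p = 4.65e-09). Mlph, Liph, Jam2 and Nav3 were low in every transplanted library. Groups that do not overlap were part of the rule that chose the largest rises and falls. Prg2, an eosinophil granule gene, was 278, 3.41, 11.8 and 31.7 against 2303, 315 and 2331 (log2 fold change -5.48, SE 1.70, adjusted p = 0.0187) and lost its call without S25 (adjusted p = 0.0753), S27 (adjusted p = 0.0727) or S29 (adjusted p = 0.0582). It was -3.56 (adjusted p = 0.366) without S25 and S27, without S30 and S31 -5.09 (adjusted p = 0.105), and with the neutrophil covariate its sign turned, to 2.00 (adjusted p = 0.345).

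**Figure D4:**
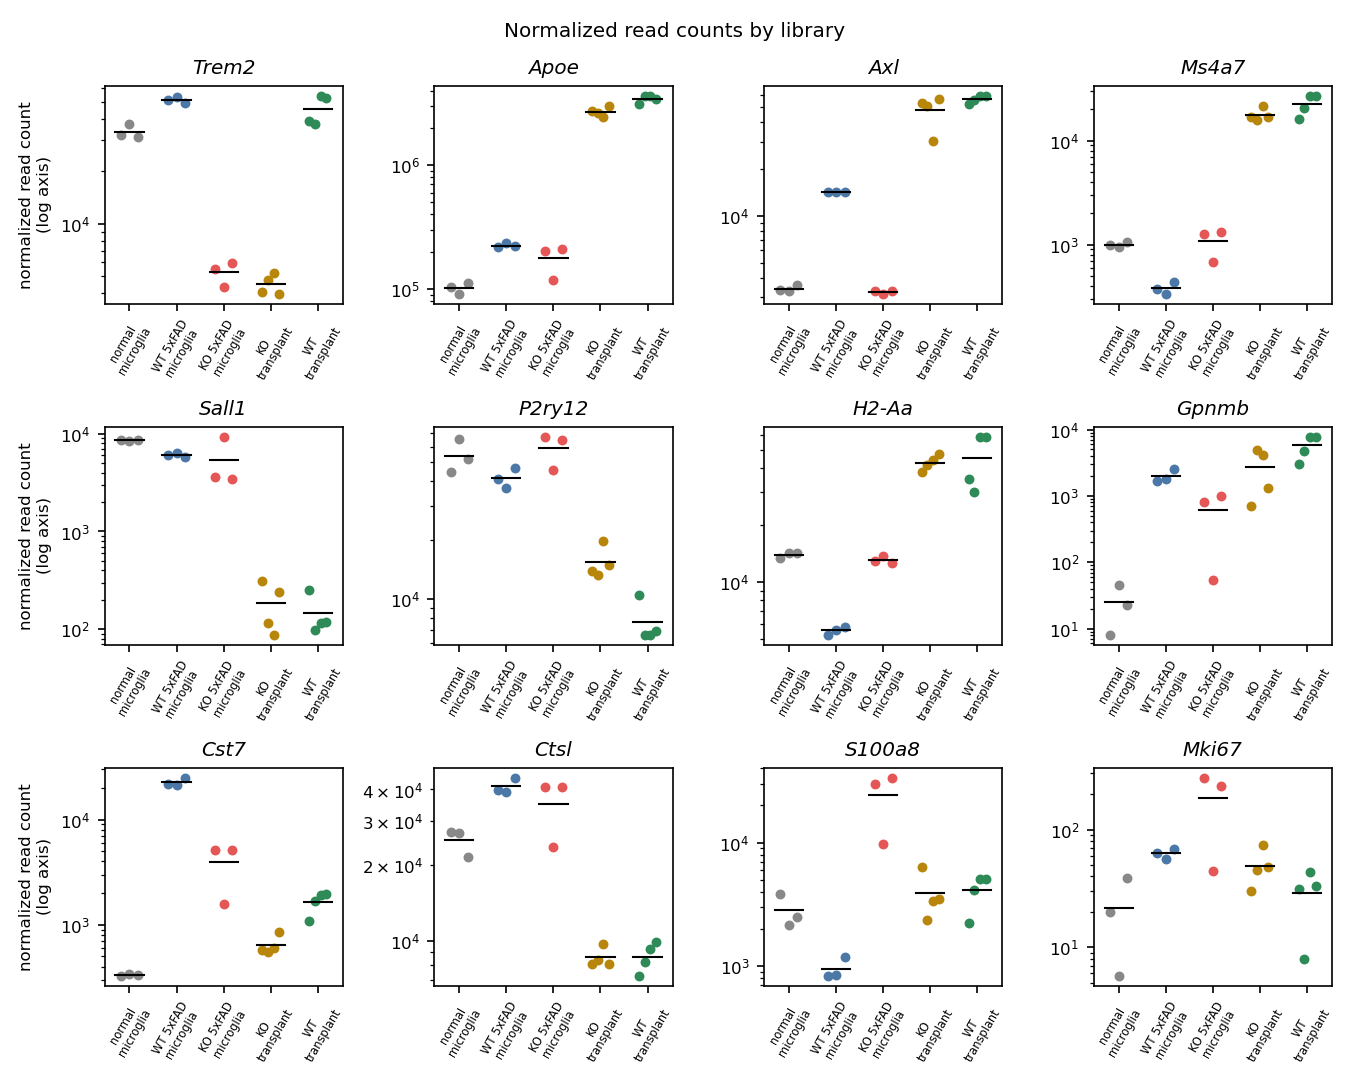
Normalised read counts (y axis, log scale) of 12 genes in each library of the 5 groups, with a line at each group's mean. Trem2 separates wild-type from knockout cells, Apoe, Axl and Ms4a7 separate transplanted cells from microglia, and S26 lies below S25 and S27 for Gpnmb (802, 54.7 and 979.9 in S25, S26 and S27) and Cst7.

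The 2 transplanted groups and wild-type 5xFAD microglia place these differences beside other contrasts of the same fit. Trem2-knockout transplanted cells minus Trem2-knockout microglia, wild-type minus knockout transplanted cells, and wild-type transplanted cells minus wild-type microglia share libraries with the main comparison, so their values are given side by side only. Across all genes, 25.5% were called in the first, 7.03% in the second and 28.4% in the third. Apoe was 2719623, 2648221, 2452587 and 3000447 in the knockout transplanted cells, libraries S32 to S35, and 217208, 234867 and 220777 in the wild-type microglia, libraries S22 to S24. The log2 fold change of Apoe was 4.32 in the main comparison, 3.97 from knockout microglia to knockout transplanted cells, and 0.35 between the donor genotypes, which was not called (adjusted p = 0.205). Gdf3 gave 6.32, 5.62 and 0.69 in that order, with the last not called (adjusted p = 0.157). H2-Aa gave 1.73, 1.71 and 0.02 (not called, adjusted p = 0.937), and Ctsl -1.98, -1.99 and 0.01 (not called, adjusted p = 0.986). For Sall1 the same contrasts gave -5.16, -4.88 and -0.28 (not called, adjusted p = 0.644). A p above the threshold does not show that donors acted alike.

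Some genes differed by donor genotype. Trem2 gave -0.23 between knockout transplanted cells and knockout microglia (not called, adjusted p = 0.295) and 3.33 between donors (adjusted p = 8e-11). Lpl was 190.1, 395, 339.8 and 139 in the knockout transplanted cells, below every knockout microglia library, and its fold changes were -2.07 there and 3.25 between donors (adjusted p = 7.53e-05), against 1.18 in the main comparison. Cst7 was 577, 551, 605 and 860.4 in the knockout transplanted cells and gave -2.44 and 1.34 (adjusted p = 0.0167). Itgax gave 1.01 and 1.33 (adjusted p = 0.00408), and Il1b 0.52 (not called, adjusted p = 0.27) and 1.85 (adjusted p = 0.00478). P2ry12 was lower in both steps, -1.93 and -1.03 (adjusted p = 0.00553). Against wild-type 5xFAD microglia, wild-type transplanted cells did not differ by the test in Trem2 (-0.19, adjusted p = 0.365), had more Apoe (3.94) and H2-Aa (2.97), and had less P2ry12 (-2.47), Cst7 (-3.80) and Ctsl (-2.25). The neutrophil gene S100a8 went the other way there, 2.06 (adjusted p = 0.000585), against -2.44 in the main comparison.

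**Figure D5:**
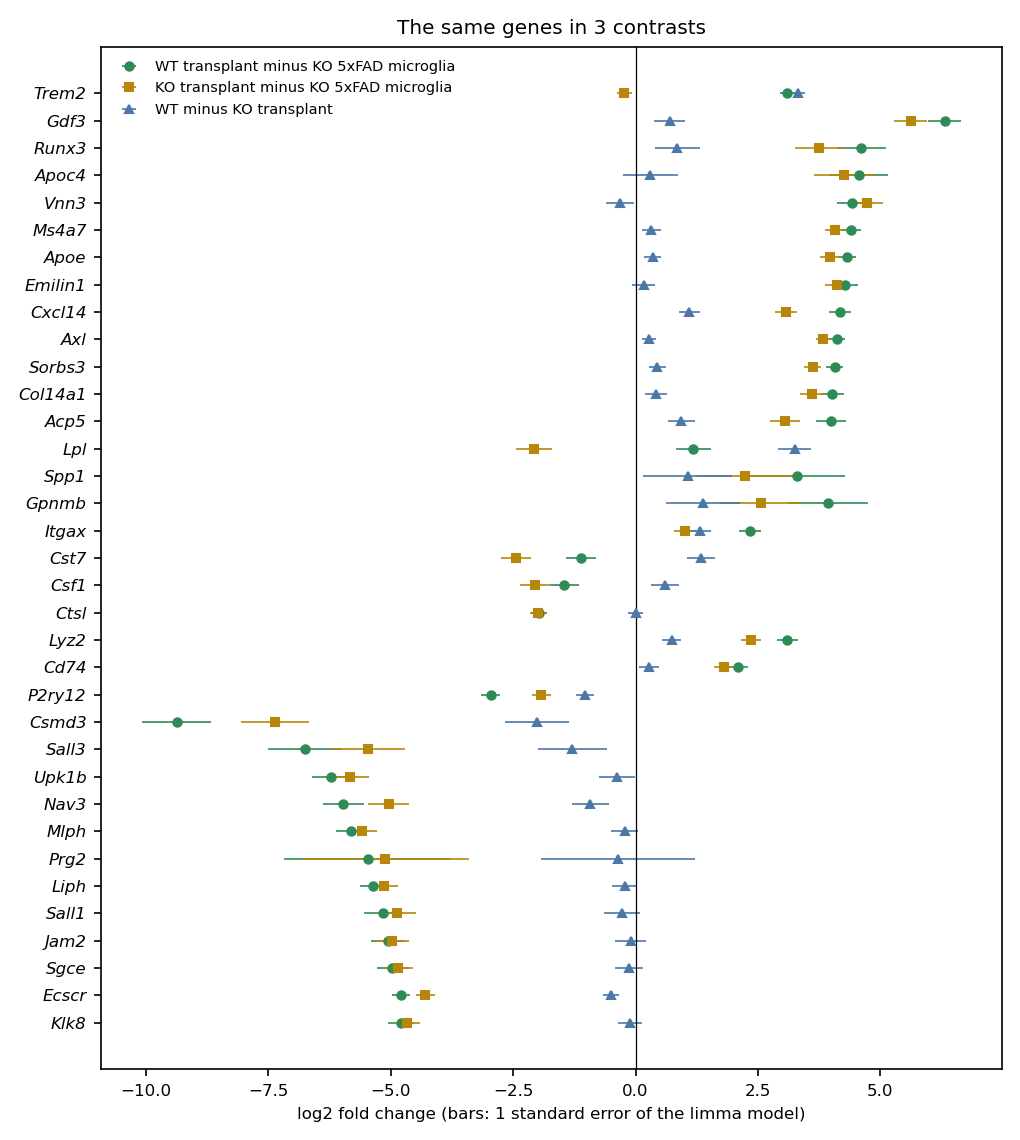
Log2 fold change with 1 SE on either side (x axis) for Trem2, the largest rises and falls and selected DAM genes in 3 contrasts: wild-type transplanted cells minus knockout microglia (green), knockout transplanted cells minus knockout microglia (gold) and wild-type minus knockout transplanted cells (blue). Trem2 lies at -0.23 in gold and 3.33 in blue, whereas Apoe lies at 3.97 and 0.35.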

How the data were processed

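RNA from sorted brain myeloid cells was made into libraries with the SMART-Seq v4 kit and sequenced on a NovaSeq, per the labels' protocols. The submitters' processing notes name bcl2fastq, STAR 2.5.2b, HTSeq, RSEM and DESeq2 (listed with version 3.17) and the builds mm10 and GRCm38.p6, with no parameters. The authors deposited 1 table of normalised counts, used here as a signal: each value is a library's reads divided by 1 size factor, a scaling that the values themselves show. Whole reads were recovered from the low values (all were whole within 0.02 reads), which gave the read totals. Columns were matched to groups by name, and their names carry no replicate number for the groups compared.

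Values were tested as log2(value + 1) with limma 3.58.1 (lmFit, eBayes with trend, two-sided) in R 4.3.3, over all 17 libraries with 1 mean for each of 5 groups and Benjamini-Hochberg adjustment over 11593 genes. The 1908 genes under 10 in 5 or more of the 7 libraries were left out. On simulated counts for 11494 genes, the test recovered 18% of genes changed 1.5-fold, 76% at 2-fold and 100% at 4-fold and 8-fold. It called 0.071% of unchanged genes. Only 50 genes were changed at each fold, far fewer than were called in the data. They came from genes with a mean of 50 or more. Libraries were drawn independently with 1 spread per gene, so the close pairs and the distance of S26 were not imitated. These rates may therefore not hold for the data. Positions are GENCODE M21 (GRCm38) coordinates and promoters are from RefSeq.

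The comparison, the 39 gene lists and the naming rule were chosen with earlier results of these data known. Named were Trem2 and Tyrobp, the 12 largest rises and falls (not overlapping, above the median level, no predicted genes), and per list up to 5 called members with the smallest p in the main direction and up to 3 in the other. List counts carry no test. Some named genes are not reported here. Alternatives were the pseudocount, filter, scaling, model, edgeR 4.0.16 and DESeq2 1.42.0 on recovered reads, libraries left out, close libraries averaged and a neutrophil covariate. Leaving out S26, S30 and S31 together was added after the data were seen.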

Additional observations from a re-analysis of the deposited data

Results flagged for a closer look

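In 17 of 227 genes checked (7.5%), a transplanted library lay far from the other 3, by a critical value that marks about 1 in 20 groups drawn by chance, a rate not measured for these genes. Most were S28 above the rest. Csmd3 was 7.83 there and 0 in the others, Upk1b 86.1 (others 19.3 to 26.8) and Prg2 278 (3.41 to 31.7). Sall1 was 251 in S28 (98.9 to 118), Slc2a5 1636 (782 to 909), P2ry12 10483 (6576 to 6899) and Msr1 3610.02 (2798 to 2907). S28 was also highest for Irak3 at 785 (421 to 449), Trp53inp1 at 429 (251 to 269.55) and Plac8 at 348 (155 to 168). It was lowest for S100a9 at 2057 (3775 to 3977) and Spp1 at 4776 (10975 to 12139.66). S29 was lowest for Sgce at 35.3 (112 to 122), H2-Oa at 325 (424 to 442) and Mrc1 at 4914 (7394 to 7750), and highest for Hmgcs1 at 399 (306 to 322). S31 was highest for C2 at 17.1 (5.26 to 5.69).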

How the results depend on the processing

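The counts of called genes (2079 higher, 2072 lower, 4151 in all) moved with the libraries and the model. They were 1325, 1315 and 2640 in a fit of the compared groups only, and 3539, 3375 and 6914 with array weights. Leaving out 1 library gave 1371 to 2949 higher, 1335 to 2821 lower and 2706 to 5770 in all, lowest without S25 and highest without S26. Without S25 and S27 they were 1167, 1022 and 2189, and without S30 and S31 1262 were higher and 2664 called in all. Averaging the closest libraries gave 1055, 1029 and 2084, and a neutrophil covariate 886, 767 and 1653. Other scalings and tools stayed within 1.5 times, with edgeR at 1700 higher and 2405 lower and DESeq2 at 2206 and 2351. At unadjusted p under 0.05, 5296 genes passed.

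Of 218 genes named by rule, 217 were called and 189 kept the call without any 1 library. Sign turned for Tyrobp (-0.14, adjusted p = 0.448) without S26, S30 and S31, Prg2 (2.00, adjusted p = 0.345) with the neutrophil covariate, Lss (-0.19, adjusted p = 0.721) and Cst7 (0.0315, adjusted p = 0.953) without S25 and S27, and C1qa (-0.0873, adjusted p = 0.523) under quantile normalisation. Of the genes named above, Adam10, Cd3e, Cst7, Ctso, Cx3cr1, Ddx58, Dhcr7, Erap1, Hif1a, Itga2b, Lpl, Lss, Mki67, Oasl1, Prg2, Ptpn6, Spp1, Srebf1, Stat2, Tgfbr1 and Trim30a lost their call when close libraries were averaged (adjusted p = 0.0512 to 0.245). Ackr3, C4b, Cd209f, Cd3e, Clec7a, Cst7, Cx3cr1, Ddx58, Erap1, Lss, Oas1g, Oasl1 and Ptpn6 lost theirs in the fit of the compared groups only (adjusted p = 0.0502 to 0.13), and Adam10, Clec7a, Cx3cr1, Lpl, Mef2a, Nfkb1, Nr1h3, Nt5e, Oas1g, Oasl1, P2ry14, Spp1, Tgfbr1 and Tmem119 without S26, S30 and S31 (adjusted p = 0.0517 to 0.593). By edgeR, Clec7a, Lss and Oas1g lost their calls (adjusted p = 0.0522 to 0.155), and by DESeq2 Cd209f, Clec7a and Lss (adjusted p = 0.0591 to 0.146). With array weights in limma, Cd209f (adjusted p = 0.0907) and C4b (adjusted p = 0.0857) lost theirs. The cause was not tested. No paired analysis was possible because the columns of the groups compared carry no replicate numbers. In the simulated counts, with the limits given above, 18% of 1.5-fold changes were recovered, and depth alone was not varied.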
